A study of Mus musculus with 16 samples.

Results

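The subunits of oxidative phosphorylation and their testis isoforms were followed across male mouse germ cells. Members were all gene symbols naming an NADH dehydrogenase subunit (Nduf with a, b, c, s or v and a number), succinate dehydrogenase (Sdha to Sdhd), cytochrome bc1 (Uqcr), cytochrome c oxidase (Cox4 to Cox8), ATP synthase (Atp5) or cytochrome c (Cycs and Cyct). This gave 87 genes of 22293. Sorted by symbol alone, 37 stood under complex I, 4 under complex II, 8 under complex III, 19 under complex IV, 17 under complex V and 2 were cytochromes c. The counts per complex therefore take in Ndufa4 under complex I, and genes such as Cox4nb that are no subunits. They also take in Atp5s and Atp5sl, which RefSeq names Dmac2l and Dmac2. RNA had been sequenced in 16 libraries of male mice of the mixed strain C57;ICR, either wildtype or lacking miR-202, a microRNA. Isolated spermatogonia came from pups 6 to 7 days after birth (2 wildtype and 2 knockout libraries) and isolated spermatocytes from adults (3 and 3). Stem cells of the spermatogonial lineage, also from 6 to 7 days after birth, had been grown in medium with GDNF and bFGF, growth factors for such cells (3 and 3). The wildtype and knockout libraries of a cell type shared strain, age stage and, for the stem cells, the culture medium.

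The respiratory chain passes electrons from NADH (complex I) and succinate (complex II) through complex III and the soluble carrier cytochrome c to oxygen (complex IV, cytochrome c oxidase), and the proton gradient built on the way drives ATP synthase (complex V). Most subunits have a nuclear gene used in all tissues, but several small subunits of complex IV, and cytochrome c itself, have second genes that are used in the testis: Cox6b2, Cox7b2, Cox8c and Cyct. Spermatocytes silence most genes of the X chromosome during meiosis, and many genes with an essential housekeeping role have an autosomal copy that is used in these cells. Subunits encoded in mitochondrial DNA were not analysed here.

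Promoters are shown for Cyct, Cox6b2 and Cox7b2, each with its housekeeping partner, because the members of a pair moved in opposite directions in spermatocytes. No promoter sequence was matched for Cox8c or Ndufa4l2, which the results below also turn on. The sequences are RefSeq's on build GRCm38.p6, 250 bases before to 50 after the annotated start, on the minus strand of chr2:76360404-76360703 (Cyct), chr6:50566520-50566819 (Cycs), chr7:4753045-4753344 (Cox6b2), chr7:30626065-30626364 (Cox6b1), and chr5:71548156-71548455 (Cox7b2), and on the plus strand of chrX:106015450-106015749 (Cox7b). Capitals mark matches on either strand to the motifs searched and named after the sequences, and runs of capitals join motifs that overlap.
Cyct: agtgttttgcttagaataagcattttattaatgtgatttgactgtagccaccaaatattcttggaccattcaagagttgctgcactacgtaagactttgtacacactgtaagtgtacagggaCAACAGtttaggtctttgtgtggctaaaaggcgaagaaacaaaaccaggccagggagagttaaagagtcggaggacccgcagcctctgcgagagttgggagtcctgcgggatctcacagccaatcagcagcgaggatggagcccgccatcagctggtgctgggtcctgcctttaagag
Cycs: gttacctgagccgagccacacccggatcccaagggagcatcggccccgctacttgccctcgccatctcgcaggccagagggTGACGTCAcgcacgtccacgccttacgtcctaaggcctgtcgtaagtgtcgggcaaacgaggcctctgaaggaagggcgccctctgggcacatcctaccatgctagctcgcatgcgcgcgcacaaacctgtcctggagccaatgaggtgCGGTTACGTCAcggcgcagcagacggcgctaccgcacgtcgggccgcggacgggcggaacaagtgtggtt
Cox6b2: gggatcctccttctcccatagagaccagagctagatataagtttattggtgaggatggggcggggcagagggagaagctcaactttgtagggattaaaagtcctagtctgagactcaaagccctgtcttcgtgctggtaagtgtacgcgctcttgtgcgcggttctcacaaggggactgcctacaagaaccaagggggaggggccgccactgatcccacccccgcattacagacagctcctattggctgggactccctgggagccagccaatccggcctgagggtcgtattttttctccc
Cox6b1: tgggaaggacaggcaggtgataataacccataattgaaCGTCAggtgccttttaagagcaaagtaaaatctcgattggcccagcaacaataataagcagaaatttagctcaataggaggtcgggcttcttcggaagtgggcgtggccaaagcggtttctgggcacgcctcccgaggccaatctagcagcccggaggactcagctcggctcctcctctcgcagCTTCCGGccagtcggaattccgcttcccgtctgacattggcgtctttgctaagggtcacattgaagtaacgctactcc
Cox7b2: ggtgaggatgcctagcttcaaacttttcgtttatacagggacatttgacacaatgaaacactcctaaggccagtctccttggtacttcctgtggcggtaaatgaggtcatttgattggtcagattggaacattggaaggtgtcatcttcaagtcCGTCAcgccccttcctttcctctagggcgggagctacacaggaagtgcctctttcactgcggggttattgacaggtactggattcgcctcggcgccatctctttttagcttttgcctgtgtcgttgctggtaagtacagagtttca
Cox7b: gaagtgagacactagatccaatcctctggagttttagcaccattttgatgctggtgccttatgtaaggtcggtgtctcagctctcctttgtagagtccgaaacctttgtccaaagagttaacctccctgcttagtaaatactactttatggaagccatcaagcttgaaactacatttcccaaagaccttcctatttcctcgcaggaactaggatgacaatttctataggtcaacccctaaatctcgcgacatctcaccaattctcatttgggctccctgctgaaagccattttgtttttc

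Promoter sequences were matched for 65 members, among them these 3 testis isoforms but not Cox8c or Ndufa4l2, and were compared with 22862 promoters of the same length. Motifs were searched on both strands. The NRF1 motif was present in 24.2% of the 62 promoters of other members and in 4.75% of all promoters. The ETS or GABP motif CCGGAAG was present in 24.2% of them and 9.12% of all, the YY1 motif AAGATGGCG in 9.68% and 1.55%, and the CRE motif TGACGTCA in 8.06% and 1.85%. None of these 4 motifs was matched in the windows of Cyct, Cox6b2 or Cox7b2, nor in that of the housekeeping gene Cox7b, which held none of the motifs searched. Cox7b2 held the shorter CRE sequence TGACG, which every CRE match contains and which 20.6% of all promoters and 37.1% of those of other members hold. Cyct held the MYB sequence CAACNG, present in 35.3% of all promoters and 30.6% of those of other members, and the MYB sequence TAACNG was present in 23.2% and 19.4%. In the Cycs window the capitals mark the full CRE, and a further TGACG joined to a TAACNG match; in the Cox6b1 window they mark a TGACG and a CCGGAAG. The ratio of observed to expected CpG was 0.466 for Cyct, 0.432 for Cox6b2 and 0.564 for Cox7b2, against 1.01 for Cycs, 0.807 for Cox6b1 and 0.368 for Cox7b. Its median was 0.815 over the 62 other members and 0.374 over all promoters. Cyct and Cox6b2 thus lay nearer to the median of all promoters than their partners did, while for Cox7b2 and Cox7b the order was the other way.

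Values are FPKM, which scale fragments by transcript length and by the size of the library, so that levels can be set side by side between genes. FPKM summed to 262109 to 395564 per library, and 9494 to 12040 of 23021 rows were at 1 FPKM or more. The number of reads is unknown. Mir202 was listed at 0 in all 16 libraries, so the genotype labels could not be checked by its level. Markers matched the label of the spermatocytes, whose 15 pachytene markers summed to 7227 to 7668 FPKM in the wildtype libraries against 126 to 136 in wildtype spermatogonia. Markers of other cells were also measured: 12 Sertoli cell markers summed to 1765 to 2589 FPKM in wildtype spermatogonia and to 22.4 to 56.7 FPKM in wildtype spermatocytes, and 16 spermatid markers summed to 2725 to 4759 FPKM in wildtype spermatocytes. Fibroblast markers (12 genes) summed to 1483 to 1539 FPKM in wildtype and 736 to 811 in knockout spermatogonia, and to 816 to 1291 and 239 to 450 in the cultures. In such bulk samples, fewer cells of a type and less RNA per cell cannot be told apart. The series' design text speaks of biological replicates but does not say whether each was an animal, a pool or a culture, so p-values measure the spread between these libraries.

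Library 3 of the wildtype cultures stood apart. Its members lay a median of 0.80 above the mean of the group's other libraries on the log2 scale, with 83 of 87 above 0, while the median of all genes was 0.0012. It had the highest value of the 6 culture libraries for 81 of 86 members. Among genes that are no members, those with a longest coding transcript under 800 bases were shifted by a median of 0.43 in that library (466 genes), and longer genes by 0 (13267 genes); 40 of the 87 members were under 800 bases. The next largest upward shifts were 0.30 in library 3 of the wildtype spermatocytes and 0.26 in library 1 of the knockout spermatogonia. The part of transcript length in these shifts was not tested.

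**Figure D1:**
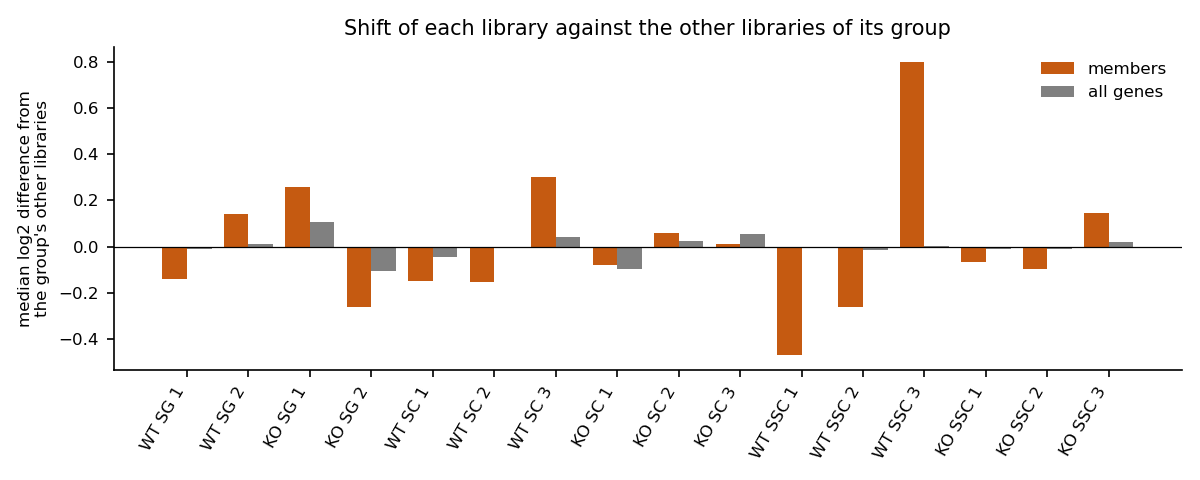
Bars give, for each library, the median log2 difference from the mean of the other libraries of its group (y axis), for the 87 members (orange) and for all genes (grey). WT and KO stand for wildtype and knockout, SG, SC and SSC for spermatogonia, spermatocytes and cultured stem cells. The bar of the members in WT SSC 3 reaches 0.80 while that of all genes is near 0.

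The first comparison asked how the members differ between spermatocytes and spermatogonia, in each genotype. In wildtype cells, members that pair as housekeeping and testis genes moved in opposite directions: Cox8c, Cox6b2, Cox7b2 and Cyct rose, while Cox8a, Cox6b1, Cox7b and Cycs fell. Cyct was already the larger of its pair in spermatogonia. Ndufa4l2 rose and Ndufa4 fell in the same way. Of 84 members tested, 27 rose and 29 fell (limma, adjusted p under 0.05), where 33.8% of all 13806 genes tested rose and 55.2% fell. The median log2 fold change was -0.03 for the members and -0.73 for all genes. Markers of Sertoli cells fell with the housekeeping partners (12 of 12 genes), as did those of fibroblasts (11 of 11 tested), and 16 of 16 spermatid markers rose; their part in the members' changes was not tested. The 3 members not tested, Cox4i2, Cox6a2 and Cox8b, the lung and the muscle forms of complex IV subunits, were below 1 FPKM in every library.

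Cox8 is the smallest nuclear subunit of complex IV, and Cox8c its testis form. Cox8c was at 6.52 and 10.6 FPKM in wildtype spermatogonia and at 1603, 1283 and 1791 FPKM in wildtype spermatocytes. Cox8a was at 339 and 391 FPKM in the former and at 7.07, 7.11 and 9.28 FPKM in the latter. Neither gene's groups overlapped. On the log2(FPKM + 1) scale Cox8c rose by 7.37 (SE 0.20, limma adjusted p = 4.2e-14) and Cox8a fell by 5.38 (SE 0.21, adjusted p = 1.93e-12). Cox8c made up 2.27% ± 0.537 (SD, n = 2) of the summed FPKM of the pair in spermatogonia and 99.5% ± 0.0570 (SD, n = 3) in spermatocytes, and the sum itself was 374 ± 39.9 FPKM and 1567 ± 258 FPKM. The exchange thus came with a higher summed level.

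Cox6b lies on the face of complex IV where cytochrome c docks. Cox6b2, its testis form, was at 11.6 and 15.7 FPKM in wildtype spermatogonia and at 627, 541 and 743 FPKM in wildtype spermatocytes. Cox6b1 was at 228 and 265 FPKM in spermatogonia and at 18.4, 20.8 and 29.2 FPKM in spermatocytes. Each gene's groups were far apart. Cox6b2 rose by 5.45 (SE 0.27, limma adjusted p = 3.01e-11) and Cox6b1 fell by 3.40 (SE 0.27, adjusted p = 1.07e-08) on the log2 scale. The share of Cox6b2 in the pair's summed FPKM was 5.22% ± 0.536 (SD, n = 2) in spermatogonia and 96.6% ± 0.512 (SD, n = 3) in spermatocytes.

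Cox7b, another small complex IV subunit, is encoded on the X chromosome, and Cox7b2 on chromosome 5. Cox7b was at 37.0 and 36.0 FPKM in wildtype spermatogonia and at 0, 0.0683 and 0.287 FPKM in wildtype spermatocytes, 0.325% of the mean level in spermatogonia. Cox7b2 was at 17.4 and 23.2 FPKM in spermatogonia and at 356, 314 and 464 FPKM in spermatocytes. Cox7b2 was thus already present in spermatogonia, with a share of 35.6% ± 5.03 (SD, n = 2) of the pair. Cox7b has 2 pseudogene copies with at least 95% identity over at least 100 bases and Cox7b2 has 0. The FPKM of Cox7b could be split between copies, and the share of Cox7b2 could then be too high. Cox7b2 rose by 4.15 (SE 0.30, limma adjusted p = 2.54e-09) and Cox7b fell by 5.08 (SE 0.36, adjusted p = 2.37e-09) on the log2 scale.

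Cytochrome c carries electrons from complex III to complex IV and, outside mitochondria, takes part in apoptosis. Cyct, the testis form, was at 28.9 and 43.0 FPKM in wildtype spermatogonia and at 160, 160 and 225 FPKM in wildtype spermatocytes. Cycs, the somatic form, was at 21.1 and 14.6 FPKM in spermatogonia and at 0.374, 0.832 and 0.746 FPKM in spermatocytes. Cyct was therefore the larger of the pair in both cell types, with 66.2% ± 11.9 (SD, n = 2) and 99.6% ± 0.145 (SD, n = 3) of the summed FPKM. Cyct rose by 2.31 (SE 0.42, limma adjusted p = 0.000102) and Cycs fell by 3.50 (SE 0.27, adjusted p = 6.17e-09) on the log2 scale. Cycs has 3 pseudogene copies and 1 further gene annotated as coding, each with at least 95% identity over at least 100 bases, so its FPKM could be split between copies. The coding sequences of Cycs and Cyct were 77.4% identical, and those of the other pairs 64.9% to 71.6%.

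Ndufa4 was first assigned to complex I and is now placed with complex IV, and Ndufa4l2, its paralog, is known as a target of hypoxia-inducible factor. Ndufa4l2 was at 0.219 and 0.483 FPKM in wildtype spermatogonia and at 36.9, 32.5 and 41.7 FPKM in wildtype spermatocytes. Ndufa4 was at 260 and 236 FPKM in spermatogonia and at 4.67, 7.96 and 10.3 FPKM in spermatocytes. Here the sum of the pair was lower in spermatocytes, at 44.7 ± 6.35 FPKM (SD, n = 3) against 248 ± 17.0 FPKM (SD, n = 2). Ndufa4l2 rose by 4.82 (SE 0.25, limma adjusted p = 5.72e-11) and Ndufa4 fell by 4.90 (SE 0.29, adjusted p = 3.31e-10) on the log2 scale. All 11 hypoxia response genes tested fell in the same comparison, among them Hif1a by 4.69 and Vegfa by 3.75 on the log2 scale, where 55.2% of all genes fell.

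**Figure D2:**
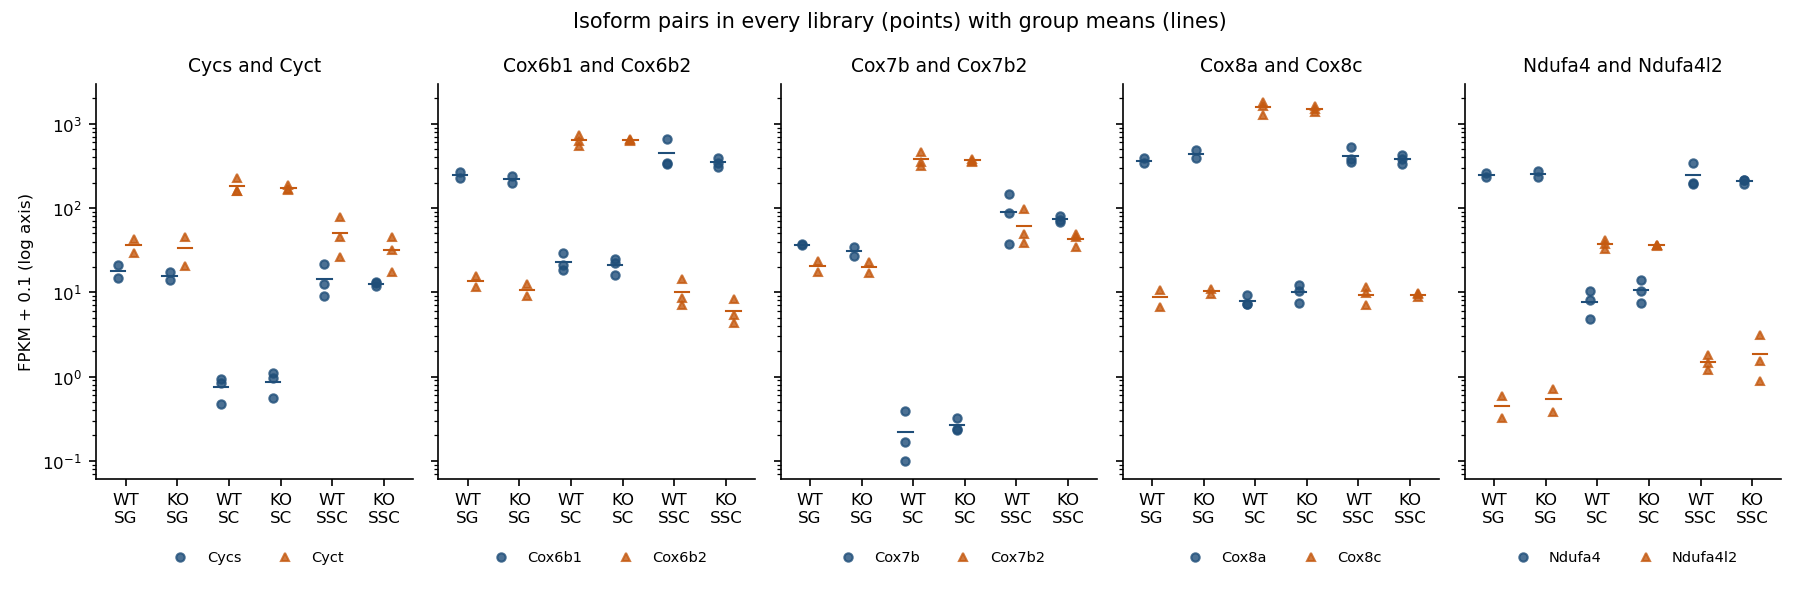
FPKM plus 0.1 on a log axis for the members of 5 isoform pairs in every library (points) with group means (lines), housekeeping genes in blue and second genes in orange, for wildtype (WT) and knockout (KO) spermatogonia (SG), spermatocytes (SC) and cultured stem cells (SSC). In spermatocytes of both genotypes the orange points lie above the blue ones in every panel, up to 1791 FPKM for Cox8c against 7.07 to 12.2 FPKM for Cox8a.

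Spermatogonia held some RNA of the testis isoforms, and the amount differed between genes. As a percentage of the mean level in wildtype spermatocytes, wildtype spermatogonia held 19.8% for Cyct, 5.37% for Cox7b2, 2.14% for Cox6b2, 0.947% for Ndufa4l2 and 0.550% for Cox8c. The 15 pachytene markers spanned these values, from 0.0764% for Adam2 and 0.105% for Ldhc through 0.540% for Piwil1, the median of the list, to 4.17% for Ovol2, 11.6% for Tbpl1 and 37.3% for Sycp1. In the other direction, spermatocytes held 0.325% of the spermatogonial level for Cox7b, 0.768% for Cox7a1, 2.14% for Cox8a, 3.08% for Ndufa4, 3.64% for Cycs and 9.25% for Cox6b1. The 12 fibroblast markers ran from 0.270% (Col1a2) to 56.0% (Postn), the 12 Sertoli cell markers from 0.289% (Gata4) to 3.69% (Cldn11), and the 9 markers of differentiating spermatogonia from 0.695% (Ccnd2) to 2910% (Dmrtb1). The housekeeping partners were thus at low but unequal levels in spermatocytes, and the part of other cells in them was not tested.

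All 3 X-linked members fell. Ndufb11, an accessory subunit of complex I, was at 57.9 and 64.1 FPKM in wildtype spermatogonia and at 0.536, 0.678 and 0.889 FPKM in wildtype spermatocytes, a fall by 5.19 on the log2 scale (SE 0.21, limma adjusted p = 3.16e-12). Ndufa1, needed to assemble complex I, was at 38.2 and 33.9 FPKM and at 7.19, 7.11 and 16.3 FPKM, a fall by 1.82 (SE 0.34, adjusted p = 0.000134). Cox7b is described above. Ndufb11 has 1 pseudogene copy by the limits given there. Of all X-linked genes tested, 84.3% of 547 fell, with a median of -2.51, against 54.0% of 13137 autosomal genes with a median of -0.65.

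Genes of ATP synthase differed among themselves. Atp5g1, Atp5g2 and Atp5g3 all encode the same mature c subunit, which forms the rotor ring in the membrane. Their summed FPKM was 370 ± 2.14 (SD, n = 2) in wildtype spermatogonia and 95.5 ± 41.0 (SD, n = 3) in wildtype spermatocytes. Atp5g2 fell 16-fold on the FPKM + 1 scale (log2 SE 0.43, limma adjusted p = 2.98e-07), and Atp5g1 fell by 1.94 and Atp5g3 by 1.85 (SE 0.30 and 0.28) on the log2 scale, each with groups that did not overlap. Atp5g3 was the most abundant of them in both cell types, at 65.6, 58.8 and 130 FPKM in spermatocytes. Atp5l, the g subunit, fell by 2.09 (SE 0.43), but 8 pseudogene copies and a further gene annotated as coding share its sequence, so its level is uncertain. Such copies were fewer for Atp5g2 (2), Atp5g1 (1) and Atp5c1 (1), and 0 for Atp5g3. Atp5c1, the gamma subunit of the central stalk, fell by 1.34 (SE 0.21), and Atp5b, the catalytic beta subunit and the member of complex V with the highest mean over all libraries, by 0.42 (SE 0.14, adjusted p = 0.00967), which turned to 0.46 (adjusted p = 0.00383) under median-ratio scaling. Atp5j, a subunit of the stator, rose by 0.82 (SE 0.19, adjusted p = 0.000757), which was 0.10 with an adjusted p of 0.44 under quantile normalization. Atp5e, the epsilon subunit, rose by 0.80 (SE 0.36, adjusted p = 0.0462), which did not pass without library 1 or 2 of the wildtype spermatogonia (adjusted p = 0.136 and 0.117) or of the wildtype spermatocytes (0.106 and 0.0967), although the log2 fold change stayed at 0.72 to 0.82. Under quantile normalization it was 0.02 (adjusted p = 0.955). Atp5s, which the symbol takes in although RefSeq names it Dmac2l, rose by 2.65 (SE 0.18, adjusted p = 1.23e-09), from 2.25 and 2.63 FPKM to 19.9, 20.7 and 20.9 FPKM. In complex V as a whole 4 of 17 members rose and 8 fell on the deposited scale, where 33.8% of all genes rose and 55.2% fell.

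In complex I, 14 of 37 members rose and 10 fell on the deposited scale, where 33.8% of all genes rose and 55.2% fell. Ndufc1, an accessory subunit, was at 49.1 and 56.9 FPKM in wildtype spermatogonia and at 227, 250 and 258 FPKM in wildtype spermatocytes, a rise by 2.19 on the log2 scale (SE 0.24, limma adjusted p = 4.22e-07). Ndufa12, an accessory subunit, rose by 1.83 (SE 0.23), Ndufv2, an iron-sulfur subunit of the NADH-binding module, by 1.47 (SE 0.23), and Ndufb5, of the membrane arm, by 1.39 (SE 0.21). Members of the same module did not move together: Ndufv1, the flavin-binding partner of Ndufv2, had a log2 fold change of -0.24 (SE 0.18, adjusted p = 0.22), with 0.64 under median-ratio scaling and -0.86 under quantile normalization. Ndufs8, an iron-sulfur subunit, fell by 1.23 (SE 0.23), which was -0.37 and did not pass under median-ratio scaling (adjusted p = 0.12). Ndufs5 could not be read, since it was listed at 3.32e-05 FPKM or less in 6 libraries and at 2.10 to 9.37 FPKM in the others.

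In complex II, limma called 0 of 4 members on the deposited scale, and 0 had an unadjusted p under 0.05. Sdha, the flavoprotein, was at 73.1 and 77.7 FPKM in wildtype spermatogonia and at 75.8, 77.1 and 89.8 FPKM in wildtype spermatocytes. The log2 fold changes of Sdha, Sdhb, Sdhc and Sdhd were 0.10, 0.03, -0.17 and -0.37, with SE of 0.13 to 0.25. Their direction depended on the scale: under median-ratio scaling they were 0.97, 0.90, 0.70 and 0.50 and all 4 passed as higher, and under quantile normalization they were -0.49, -0.56, -0.72 and -0.79 and all 4 passed as lower. In complex III, 3 of 8 members rose and 2 fell on the deposited scale, where 33.8% of all genes rose and 55.2% fell. Uqcrc1, a core subunit, rose by 1.27 (SE 0.13, limma adjusted p = 2.13e-07), from 98.4 and 111 FPKM to 248, 246 and 269 FPKM. Uqcrc2, its partner, rose by 0.75 (SE 0.14) and Uqcrq, a small subunit, by 0.89 (SE 0.27), which under quantile normalization were 0.19 and 0.10 and did not pass (adjusted p = 0.105 and 0.586). Uqcr11 and Uqcrh, small subunits, fell by 1.07 and 0.73 (SE 0.24 and 0.25), which under median-ratio scaling were -0.21 and 0.15 and did not pass (adjusted p = 0.39 and 0.522).

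Complex IV had the widest spread of log2 fold changes, from -5.38 to 7.37. On the deposited scale 5 of 16 members rose and 8 fell, where 33.8% of all genes rose and 55.2% fell. Cox7a1, the heart and muscle form of Cox7a, was at 16.5 and 17.3 FPKM in wildtype spermatogonia and at 0, 0.390 and 0 FPKM in wildtype spermatocytes, a 16-fold fall on the FPKM + 1 scale (log2 SE 0.29, limma adjusted p = 3.32e-09). Cox7a2, the form of other tissues, rose by 1.19 (SE 0.23, adjusted p = 0.000173), from 115 and 120 FPKM to 250, 250 and 311 FPKM. Cox7a2l, which joins complexes III and IV into supercomplexes, fell by 1.03 (SE 0.19), which was -0.16 with an adjusted p of 0.431 under median-ratio scaling. Cox4i1, the form of the regulatory subunit found in most tissues and the member of complex IV with the highest mean over all libraries, was at 678 and 743 FPKM in spermatogonia and at 709, 669 and 863 FPKM in spermatocytes. In spermatocytes Cox8c stood above it. The log2 fold change of Cox4i1 was 0.07 (SE 0.22, adjusted p = 0.781), with -0.89 under quantile normalization and 0.95 under median-ratio scaling, both past the threshold. Cox4nb, whose symbol fits the rule although it is named only for lying beside Cox4i1, fell by 2.04 (SE 0.19).

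**Figure D3:**
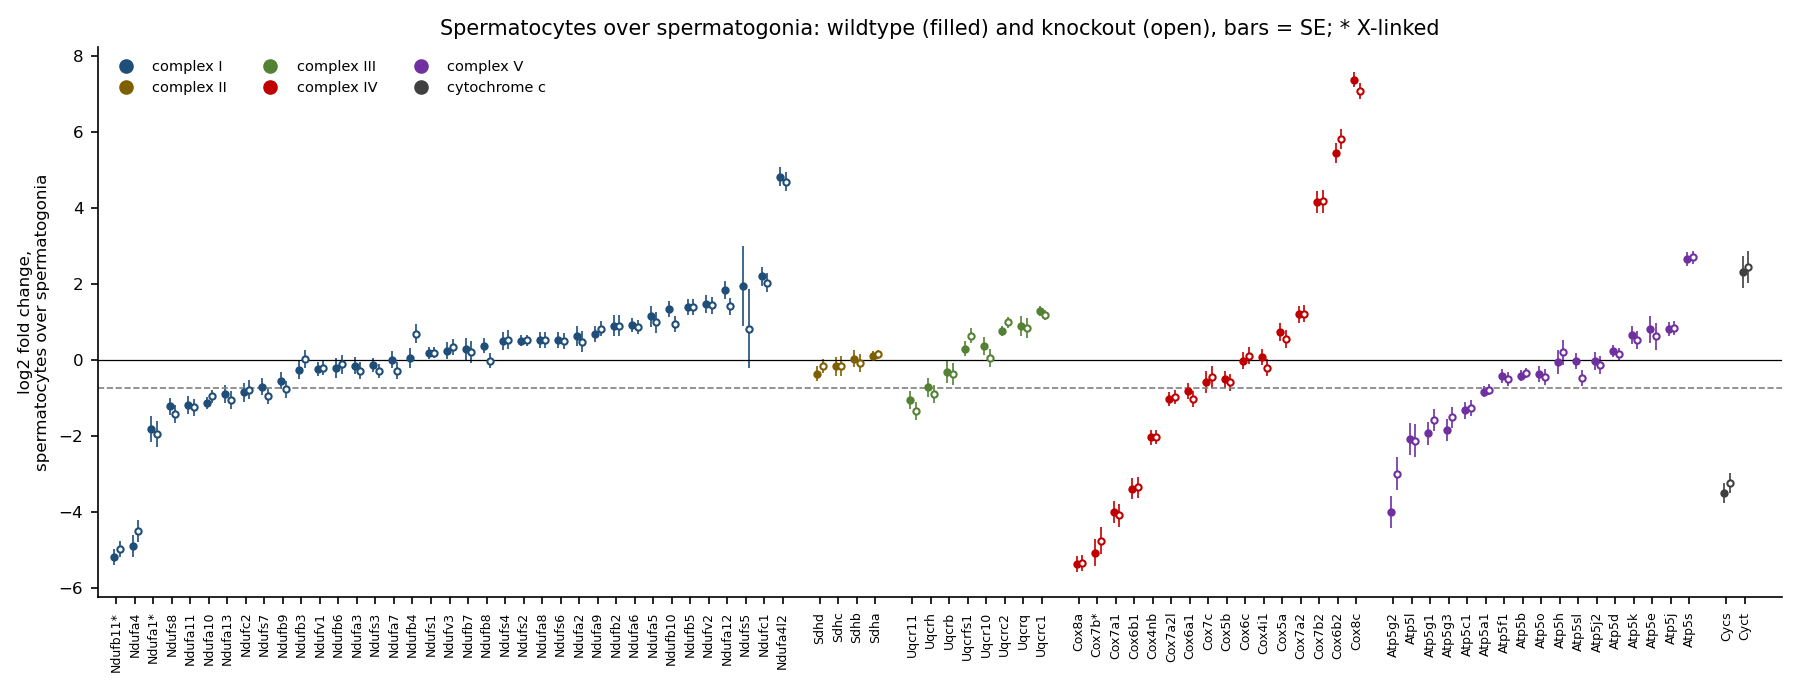
Log2 fold change of spermatocytes over spermatogonia (y axis) for each tested member, grouped by complex and sorted within it, in wildtype (filled) and knockout cells (open). Bars are standard errors, stars mark X-linked members and the dashed line marks the median of all genes in wildtype cells, -0.73. Cox8c, Cox6b2, Ndufa4l2 and Cox7b2 lie above 4 and Cox8a, Ndufb11, Cox7b and Ndufa4 below -4 in both genotypes.

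The counts of this comparison moved with the scale. Dividing each library by its median ratio moved the median of all genes to 0.09 and that of the members to 0.85, with 55 members rising and 14 falling, where 45.6% of all genes rose and 43.3% fell. Quantile normalization moved these medians to -0.37 and -0.49, with 15 members rising and 46 falling, where 38.5% and 49.3% of all genes did. The direction of the bulk of the subunits therefore depended on the scale. Under the deposited scale, both scalings and a pseudocount of 0.1, in wildtype and in knockout cells alike, 12 members rose (Atp5s, Cox6b2, Cox7a2, Cox7b2, Cox8c, Cyct, Ndufa12, Ndufa4l2, Ndufb5, Ndufc1, Ndufv2 and Uqcrc1). Under the same settings 14 fell (Atp5c1, Atp5g1, Atp5g2, Atp5g3, Atp5l, Cox4nb, Cox6b1, Cox7a1, Cox7b, Cox8a, Cycs, Ndufa1, Ndufa4 and Ndufb11). These lists were drawn up after the values were seen, and 3 of the alternatives chose them. Their members also kept direction and call under the others run, leaving out each library included. The share of all genes that met the same settings is not given, so the lengths of the lists are not shown to be particular to the members.

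Knockout cells gave the same picture in libraries that the wildtype comparison did not use. In knockout spermatocytes over knockout spermatogonia 27 of 84 members rose and 30 fell, where 34.3% and 53.9% of all genes did. The rising members shared 25 with the wildtype list, 92.6% of each; Atp5e and Ndufa2 were called in wildtype alone, and Ndufb4 and Uqcrfs1 in knockout alone. The falling members shared 29, all of the wildtype list and 96.7% of the knockout list, with Atp5sl called in knockout alone. The same overlap over all genes is not given. Since most genes were called in each genotype, an overlap this high is not shown to be particular to the members. Cox8c rose by 7.07 (SE 0.20), Cox6b2 by 5.81 (SE 0.27), Ndufa4l2 by 4.68 (SE 0.25), Cox7b2 by 4.17 (SE 0.30) and Cyct by 2.45 (SE 0.42) on the log2 scale in knockout cells. The share of the second gene in knockout spermatocytes was 99.3% ± 0.185 for Cox8c, 96.9% ± 0.677 for Cox6b2, 99.6% ± 0.147 for Cyct and 77.6% ± 6.00 for Ndufa4l2 (SD, n = 3 each). The test of the difference between genotypes called 0 of 84 members higher and 0 lower (limma), where 1.96% and 0.181% of all genes were called, and 0 members had an unadjusted p under 0.05. Members called in a single genotype were therefore not shown to differ between genotypes.

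Other genes of mitochondrial energy metabolism were read from lists. Of 31 assembly factors of the respiratory complexes, 10 rose and 17 fell in wildtype spermatocytes over spermatogonia, near the 33.8% and 55.2% of all genes, against which the counts of the other lists are also to be read. Ndufaf3, an assembly factor of complex I, rose by 6.28 on the log2 scale (SE 0.19, limma adjusted p = 1.59e-13), from a mean of 5.34 to 491 FPKM, and Hccs, the X-linked enzyme that attaches heme to cytochrome c, fell by 4.80 (SE 0.17). Of 20 genes of pyruvate dehydrogenase and the citric acid cycle, 12 rose and 8 fell. Csl, a citrate synthase paralog, rose by 6.75 (SE 0.11, adjusted p = 1.08e-15), while the mean of Cs, citrate synthase itself, was 91.4 FPKM in spermatogonia and 17.9 FPKM in spermatocytes. Pdha1, the X-linked alpha subunit of pyruvate dehydrogenase, fell by 3.85 (SE 0.16), and its autosomal testis form Pdha2 had means of 4.38 and 109 FPKM; Cs and Pdha2 were named for their paralogs after their values were seen. Among 9 carriers and channels, 2 rose and 6 fell, with Vdac1 lower by 5.08 (SE 0.31), Slc25a5, an ADP/ATP carrier, lower by 5.17 (SE 0.38) and Vdac2 higher by 1.75 (SE 0.14). Of 14 regulators of mitochondrial genes, 4 rose and 10 fell, among them Nrf1 by 1.79 (SE 0.12). Of 76 mitochondrial ribosomal proteins, 20 rose and 38 fell. On other scales the assembly factors counted 14 rising and 12 falling (median-ratio) or 12 and 11 (quantile), while 8 genes of the citric acid cycle list and 11 hypoxia response genes fell under each.

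**Figure D4:**
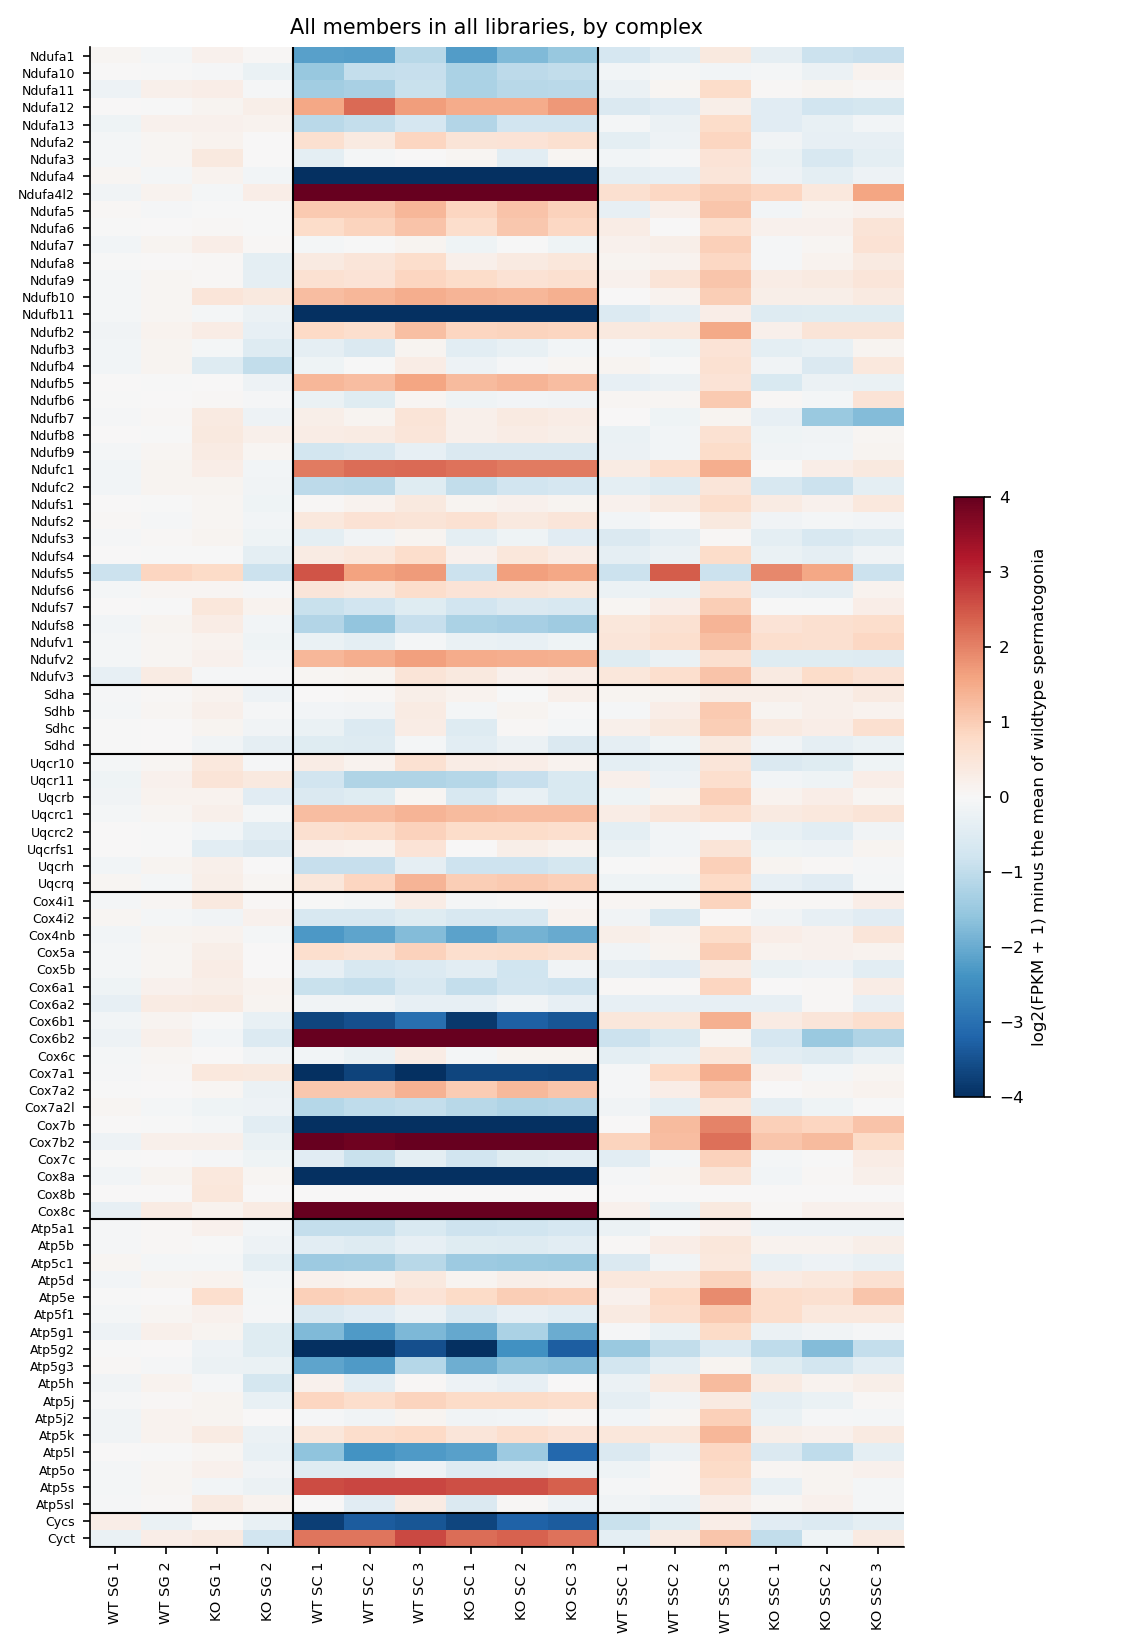
Colour gives log2(FPKM + 1) minus the mean of the wildtype spermatogonia for each of the 87 members (rows, by complex) in each of the 16 libraries (columns), limited to -4 and 4. The spermatocyte libraries of both genotypes share the same strongly red and blue rows, among them Cox8c, Cox6b2, Cox7b2 and Ndufa4l2 in red and Cox8a, Cox7b, Ndufa4 and Ndufb11 in blue.

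The second comparison set the cultured stem cells beside isolated spermatogonia. In wildtype cells 17 of 84 members rose and 0 fell, where 30.5% of all genes rose and 22.6% fell (limma, adjusted p under 0.05; 18 members had an unadjusted p under 0.05). The median was 0.19 for the members and 0.12 for all genes. Markers of other cells moved in the same comparison: 11 of 12 Sertoli cell and 6 of 6 Leydig cell markers fell, and 5 of 6 macrophage markers and 14 of 15 markers of undifferentiated spermatogonia rose. Their part in the members' values was not tested. Without library 3 of the wildtype cultures, which stands apart, 10 members rose and 7 fell and their median was -0.03. Of 12849 genes 3950 rose and 3050 fell in that fit. Without library 1 of the spermatogonia 2 members rose (2595 of 12737 genes), and without library 2 of the spermatogonia 10 (3057 of 12732). Without library 1 of the cultures 26 members rose (3763 of 12799 genes). The count of members thus rested on single libraries.

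Cox7b2 was the member with the largest rise, from 17.4 and 23.2 FPKM to 38.2, 48.7 and 96.1 FPKM, a log2 fold change of 1.44 (SE 0.30, limma adjusted p = 0.000892) that passed under all 12 alternatives. Its partner Cox7b rose by 1.08 (SE 0.36, adjusted p = 0.0206) with overlapping groups, and did not pass without library 1 or 2 of the spermatogonia (adjusted p = 0.0854 and 0.0888) or library 2 or 3 of the cultures (0.0562 and 0.0706). The share of Cox7b2 was 42.0% ± 7.92 (SD, n = 3) in the cultures and 35.6% ± 5.03 (SD, n = 2) in the spermatogonia, with ranges of 35.6% to 50.9% and 32.0% to 39.2% that overlapped. The pseudogene copies of Cox7b limit both shares. Ndufa4l2 was at 1.10, 1.36 and 1.68 FPKM in the cultures, a rise by 0.82 (SE 0.25, adjusted p = 0.0126) at a level far below that of spermatocytes. Ndufv1 rose by 0.78 (SE 0.18, adjusted p = 0.00216), Atp5f1, a stator subunit, by 0.69 (SE 0.18, adjusted p = 0.00469), Ndufs8 by 0.81 (SE 0.23), Ndufc1 by 0.83 (SE 0.24) and Uqcrc1 by 0.48 (SE 0.13). Of these, Atp5f1, Ndufs8, Ndufc1, Uqcrc1 and Ndufa4l2 did not pass without library 1 of the spermatogonia (adjusted p = 0.0541, 0.0823, 0.0872, 0.0855 and 0.116). Cox8c, Cox6b2 and Cyct did not pass, with shares in their pairs of 2.18% ± 0.445, 2.21% ± 0.221 and 77.1% ± 2.32 (SD, n = 3 each).

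In knockout cells 9 of 84 members rose and 6 fell in the cultures, where 32.2% and 22.4% of all genes did. The balance of the members turned under other settings, to 4 rising and 14 falling with median-ratio scaling and 11 and 22 with quantile normalization. It was 15 and 19 in the fit of these groups alone and 8 and 17 with the replicate block. All genes gave 3383 rising and 3136 falling of 12490, and 3991 and 3420 of 12902, with these 2 scalings. They gave 4244 and 2862 of 12272 in the groups alone and 4025 and 3004 of 12902 with the block. The rising members shared 8 with the wildtype list, 47.1% of that list and 88.9% of the knockout list. The same overlap over all genes is not given here either, so it is not shown to be particular to the members. Cox7b2 rose by 1.08 (SE 0.30, limma adjusted p = 0.00638), Ndufv1 by 0.74 (SE 0.18) and Cox7b by 1.24 (SE 0.36), and none of the 3 passed without library 2 of the knockout spermatogonia (adjusted p = 0.0873, 0.0552 and 0.0876). Without that library 1 member rose in all, where 2702 of 12831 genes did. Ndufb7, Ndufa12, Ndufa3, Ndufs3, Cox6b2 and Uqcr10 fell in knockout cells alone. The test of the difference between genotypes called 0 members higher and 0 lower, where 1.05% and 0.767% of all genes were called, and 4 members had an unadjusted p under 0.05.

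Set against wildtype cultures, wildtype spermatocytes gave opposite changes within the pairs again. This comparison shares its libraries with those above. Of 84 members 21 were higher and 37 lower, where 33.2% and 56.9% of all genes were. Median-ratio scaling turned this to 50 higher and 15 lower, where 46.1% and 43.2% of all genes were. Quantile normalization gave 15 and 50, where 38.2% and 50.2% of all genes were. Cox8c was higher by 7.26 on the log2 scale, Cox7b2 by 2.70 and Cyct by 1.96, and Atp5s by 2.45, each past the threshold of limma's test.

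Both genotypes had been sequenced in each cell type, so knockout was set against wildtype cells of the same type. In spermatogonia, limma called 0 of 83 members higher and 0 lower, where 0.917% of all 11997 genes were called higher and 5.76% lower; 2 members had an unadjusted p under 0.05. The median log2 fold change was -0.01 for the members and -0.06 for all genes. The libraries of the genotypes did not overlap for 21 members, where 56.1% of all genes had no overlap. The smallest p belonged to Ndufb4, an accessory subunit of complex I, with a log2 fold change of -0.74 (SE 0.28, adjusted p = 0.143), and to Uqcrfs1, the Rieske iron-sulfur protein of complex III, with -0.51 (SE 0.21, adjusted p = 0.199). Neither passed. Of 11 fibroblast markers tested 6 were lower in knockout spermatogonia, and 5 of 8 markers of peritubular myoid cells; their part in the members' values was not tested. Ndufb4 passed in the fit of these groups alone (adjusted p = 0.0144).

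In spermatocytes 0 of 80 members were called higher and 0 lower, where 0% and 0.00974% of all 10271 genes were, and 0 members had an unadjusted p under 0.05. The members' median was -0.04. Groups did not overlap for 2 members, where this held for 7.96% of all genes. Cox8c was at 1602, 1391 and 1477 FPKM in knockout spermatocytes, within the range of 1283 to 1791 FPKM in wildtype ones. Atp5g2 had the smallest p, at 1.07 to 2.92 FPKM in wildtype and 1.30 to 7.39 FPKM in knockout spermatocytes, with overlapping groups (log2 fold change 0.66, SE 0.38, limma adjusted p = 0.999). The libraries of both genotypes overlapped for each of the 5 isoforms that rose in spermatocytes.

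In the cultures 0 of 84 members were called higher and 1 lower, where 0.324% and 5.84% of all 12046 genes were. That member was Ndufb7, an accessory subunit at the membrane arm of complex I. It was at 100.02 to 120 FPKM in wildtype and at 89.2, 39.6 and 32.9 FPKM in knockout cultures, so that the groups did not overlap but library 1 of the knockout lay near the wildtype ones. The log2 fold change was -1.17 (SE 0.27, limma adjusted p = 0.0144), and the call was lost without library 2 or 3 of the knockout cultures (adjusted p = 0.0757 and 0.0875) and in the fit of these groups alone (0.143). Ndufb7 was not shown to differ in its response between cell types (difference from spermatogonia -1.25, SE 0.42, adjusted p = 0.177).

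The other members of the cultures leaned low with library 3 of the wildtype. Of 84 members 78 lay below 0, with a median of -0.21 against -0.02 for all genes, and groups did not overlap for 3 members, where this held for 18.3% of all genes. Without library 3 of the wildtype cultures the members' median was 0.03. Of 12 fibroblast markers 10 were lower in the knockout cultures; their part in the members' values was not tested. Ndufa3 had the next smallest p, with a log2 fold change of -0.57 (SE 0.19, limma adjusted p = 0.113), followed by Ndufc1 with -0.61 and Cox6b2 with -0.66, neither of which passed. The tests of the difference of the genotype effect between spermatocytes and cultures called 0 members higher and 0 lower, where 1.96% and 0.0577% of all genes were called, and 3 members had an unadjusted p under 0.05.

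**Figure D5:**
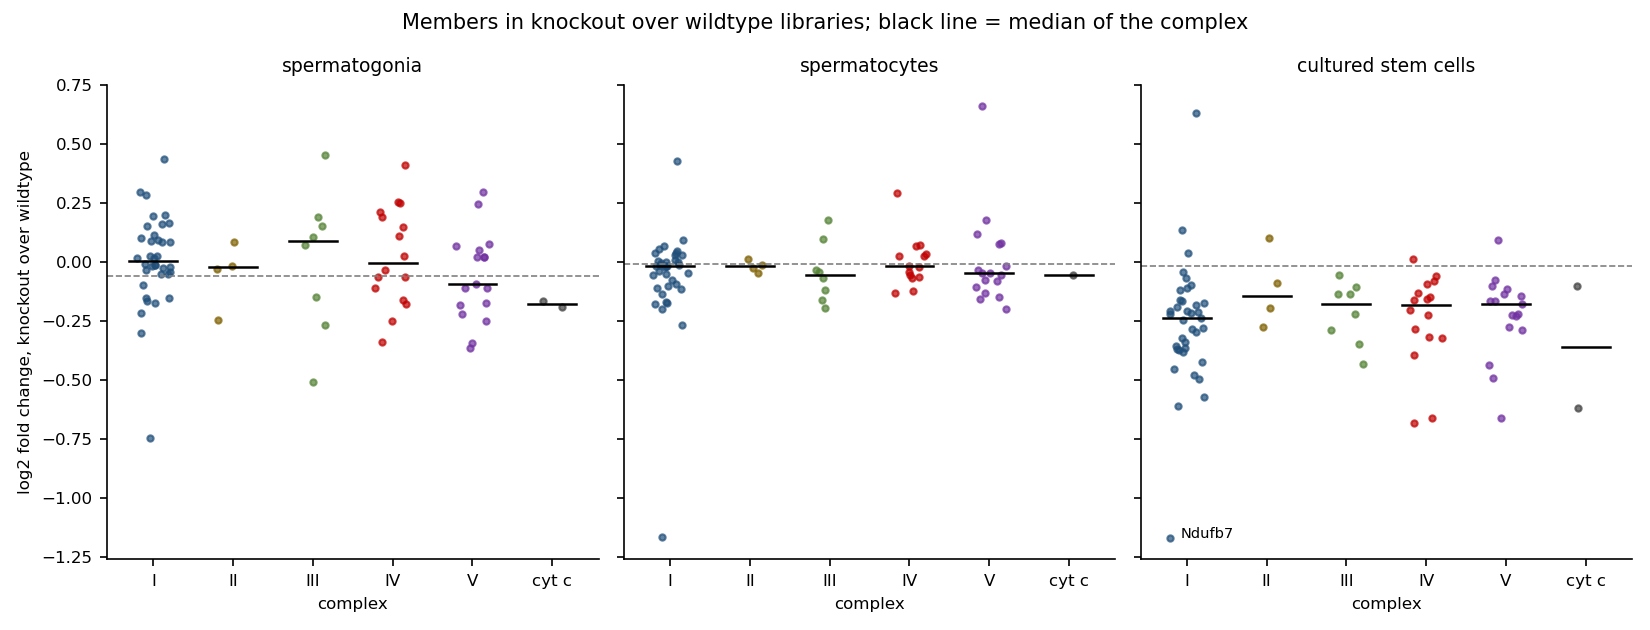
Log2 fold change of knockout over wildtype (y axis) for each tested member, by complex (x axis), in spermatogonia, spermatocytes and cultured stem cells. Points are members, black lines the medians of a complex and dashed lines the medians of all genes. Points scatter about the dashed line in spermatogonia and spermatocytes and lie mostly below it in the cultures, where Ndufb7, at -1.17, is the member called; the low point of complex I in spermatocytes is Ndufs5, which could not be read.

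Among the other lists, knockout against wildtype gave few calls in 3 comparisons. In spermatogonia 1 regulator of mitochondrial genes and 1 mitochondrial ribosomal protein were higher, and 2 genes of pyruvate dehydrogenase and the citric acid cycle and 1 hypoxia response gene were lower, where 0.917% and 5.76% of all genes were. In spermatocytes 0 genes of these lists were called, and in the cultures 2 of 11 hypoxia response genes were lower, where 5.84% of all genes were. Assembly factors and carriers had 0 calls in each cell type.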

How the data were processed

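The deposited values are FPKM, made by the authors, with a row for each gene symbol in a file per library. TopHat2 2.0.6, Cufflinks 2.0.2 and the build mm9 are named, without settings, per the submitters' processing notes. Libraries were made with a directional kit, per the labels' protocols. Depth is unknown, so no counting interval was computed. Of 22552 symbols, 259 that occurred more than once were left out. The scale was log2(FPKM + 1), on which changes of low genes come out too small. With limma 3.58.1 (R 4.3.3, two-sided tests), 6 group means were estimated from the 16 libraries over 14480 genes, with 10 residual degrees of freedom and a variance trend. Genes entered a comparison where at least 2 libraries of a cell type compared reached an FPKM of 1. Adjustment followed Benjamini and Hochberg over all genes of a comparison, and the threshold was 0.05.

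Members and lists were chosen with earlier results of these data known. Named were isoform genes and their partners, X-linked members, up to 3 members per complex and direction with the largest change among those called without overlap, those with the smallest p for the knockout, the most abundant member of each complex, and up to 4 genes per list with the smallest p. Members outside this rule (such as Ndufv2, Ndufb5, Atp5c1 and Cox4nb in the spermatocyte comparison) were also named after their values were seen. In simulated data for knockout against wildtype in spermatogonia, spermatocytes and cultures, a log2 change of 1 was recovered for 57, 83 and 79 of 100 genes. A change of 2 was recovered for 93, 95 and 90 of 100, and 6, 15 and 9 unchanged genes were also called. Changed genes were drawn from those above a minimum mean FPKM, and many were changed at once. Noise was independent, without shifts of whole libraries, so these shares can overstate what the real comparisons recover. Chromosomes and promoters came from RefSeq GRCm38.p6, transcripts from GENCODE; since the files use mm9, no coordinates were taken from them. Python 3.11.15, BLAST 2.17.0, Biopython 1.88 and matplotlib 3.10.9 were used. Alternatives were a pseudocount of 0.1, no filter, quantile normalization, median-ratio scaling, only the groups compared, a replicate block, repeated symbols summed and each library left out.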

Additional observations from a re-analysis of the deposited data

How the results depend on the processing

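Of 158 comparisons of named members, 125 were called, and 76 of these kept their direction and call under every alternative. Many members were named because they were called with large changes, so these counts do not describe the members as a whole. With median-ratio scaling, members called higher and lower in spermatocytes over spermatogonia numbered 55 and 14 (wildtype) and 51 and 17 (knockout). Of all genes 45.6% and 43.3%, and 45.3% and 42.6%, were. With quantile normalization the members numbered 15 and 46, and 14 and 46, where 38.5% and 49.3%, and 37.7% and 48.7%, of all genes were. Wildtype spermatocytes over cultures gave 50 and 15 with median-ratio scaling, where 46.1% and 43.2% of all genes were. In wildtype spermatocytes over spermatogonia, 23 members changed sign with median-ratio scaling and 20 with quantile normalization. Those called on at least 1 of the scales included Atp5b (0.46), Atp5f1 (0.43), Cox6a1 (0.053), Ndufa3 (0.72), Ndufs3 (0.73), Ndufv1 (0.64), Sdhc (0.70), Sdhd (0.50) and Uqcrh (0.15) with median-ratio scaling. With quantile normalization they included Atp5k (-0.12), Cox4i1 (-0.89), Ndufa2 (-0.15), Ndufa7 (-0.80), Sdha (-0.49), Sdhb (-0.56) and Uqcr10 (-0.41). Median-ratio scaling also turned, among others, Atp5b (0.29), Cox4i1 (0.69), Ndufa7 (0.52) and Sdhb (0.56) in wildtype spermatocytes over cultures. In knockout spermatocytes over spermatogonia it turned, among others, Atp5b (0.44), Cox4i1 (0.58), Ndufa7 (0.50) and Sdhb (0.71). Members turned there by quantile normalization included Atp5k (-0.22). For wildtype cultures over spermatogonia, the fit of these groups alone gave 4 members higher and 1 lower, where 2910 and 2325 of 12555 genes were. Lower were 5 members with quantile normalization and 1 with median-ratio scaling, where 3331 of 12902 and 3020 of 12490 genes were. Leaving out a library gave 2 to 26 members higher and 0 to 7 lower, where 2595 to 3950 and 2118 to 3050 genes were. For knockout cultures over spermatogonia, median-ratio scaling gave 4 members higher and 14 lower, quantile normalization 22 lower and the groups alone 15 higher and 19 lower. The counts of all genes for these settings are given above. Leaving out a library gave 1 to 10 members higher and 2 to 6 lower, where 2702 to 3846 and 2222 to 2730 genes were. For knockout against wildtype, the members called lower in spermatogonia were 1 with quantile normalization and 2 in the groups alone, where 647 and 992 of 11997 genes were. In cultures they were 2 and 0, where 522 and 251 of 12046 genes were. Without a library they were 0 to 3 in cultures, where 473 to 743 genes were. The difference of this effect gave 0 to 1 members lower between cultures and spermatogonia, and 0 to 1 higher between spermatocytes and cultures, without a library. Of all genes 22 to 128 and 91 to 400 were. The cause of these shifts was not tested.

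Replicate numbers were shared by the genotypes. Deviations of same-numbered libraries from their group means correlated at -0.167 in spermatogonia, -0.342 to 0.264 in spermatocytes and -0.063 to 0.234 in cultures. Deviations within such small groups are bound to cancel out, so these values cannot decide whether the numbers pair the libraries. With the replicate block 1 member was lower in knockout spermatogonia (also 1 under a crossed pairing, added after seeing the data), where 529 of 11997 genes were (610 when crossed). In cultures over spermatogonia the block gave 14 members higher and 1 lower (wildtype) and 8 higher and 17 lower (knockout). Of 12902 genes 3788 were higher and 2983 lower, and 4025 and 3004. The small groups and unknown depth limit what could be called.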
